A study of Arabidopsis thaliana with 48 samples.

Results

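The question addressed here is what had changed, 2 min after a single leaf of an Arabidopsis plant was placed under strong light, in another leaf of that plant that received no extra light. The libraries were those of Col wild type plants (WT) titled as systemic leaf at 2 min, 3 replicates, against those titled as systemic leaf at 0 min, 3 replicates, so 6 of the 48 libraries of the series. All plants of these groups were 4 to 5 weeks old and had grown at 23 °C in short days of 8 h light and 16 h dark at 50 µmol m-2 s-1. In the 2 min group the local leaf had received 2000 µmol m-2 s-1 from a gooseneck lamp, and in the 0 min group that leaf received none. The rest of the series holds the local leaf, later time points and the rbohD knockout, which lacks a functional respiratory burst oxidase homologue D. By the study's methods the 3 replicates of a group are biological repeats of the experiment, each with the leaves of many plants pooled, and the labels do not assign a library to a treatment day or batch. Every plant was sampled at 1 time only, and nothing in the labels separates the time point from the set of plants or the order of harvest, so these cannot be told apart.

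A leaf under excess light makes reactive oxygen species and sends rapid signals, carried by calcium, electric potential, hydraulic pressure and reactive oxygen species, through the vasculature to the rest of the rosette. The receiving leaf then changes its transcripts, a response known as systemic acquired acclimation. RBOHD makes superoxide outside the cell and carries the reactive oxygen part of this signal from cell to cell. Transcript levels of stress regulators, of nutrient and sugar responses and of growth genes are known to respond to such signals, and many of these also follow the light and the time of day.

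The 6 libraries held 20197316 to 25988992 reads, and values are given as normalized counts, that is reads per gene divided by a size factor for each library. Of 32833 genes listed, 18140 had at least 10 normalized counts in at least 3 of the 12 WT systemic libraries and were tested with limma on log2(normalized count + 1), with Benjamini-Hochberg adjustment over all of them and a threshold of 0.05. A fold change on this scale is understated for genes of low level. The biological coefficient of variation that edgeR gave for the WT systemic libraries was 4.44%. Chi-square divided by its degrees of freedom was 2.26 to 5.24 for the pairs of replicates, above the value of 1 that counting error alone gives. The p-values measure the spread between these pools. The total of normalized counts was 24290649 to 24839006 at 0 min and 22289686 to 23525385 at 2 min, and the 10 most abundant genes took 13% to 13.4% of reads at 0 min and 14.1% to 15.3% at 2 min. Leaf markers were present, with 1331120, the middle of the 3 libraries, for the sum of 4 mesophyll markers at 0 min and 1099870 at 2 min, whereas 6 root markers summed to at most 10.1 in any library and the root genes PLT1 and RHD6 were at 0 in all 6.

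At 2 min 10937 genes differed from 0 min, 60.3% of those tested. Of these 5518 were raised (30.4%) and 5419 were lowered (29.9%), and in 11374 genes (62.7%) the libraries of the groups did not overlap. Counts of raised and lowered members of each gene list below stand beside these shares of 30.4% and 29.9%. Most changes were small, with a median size of 0.46 on the log2 scale among the genes called. Changes of 2-fold or more were found in 710 raised genes (3.91%) and 805 lowered genes (4.44%), and of 4-fold or more in 74 and 66. The split between directions depended on the scaling. The median change of all genes was 0.03 as normalized by the authors and 0.14 once all libraries had been scaled to an equal total, a shift of 0.11, and after rescaling 7224 genes were raised and 4028 lowered, so that raised genes made up 64.2% of the calls against 50.5%. No gene called in one direction was called in the other after rescaling, and list medians are therefore given beside that of all genes, from which they moved by at most 0.0053.

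**Figure D1:**
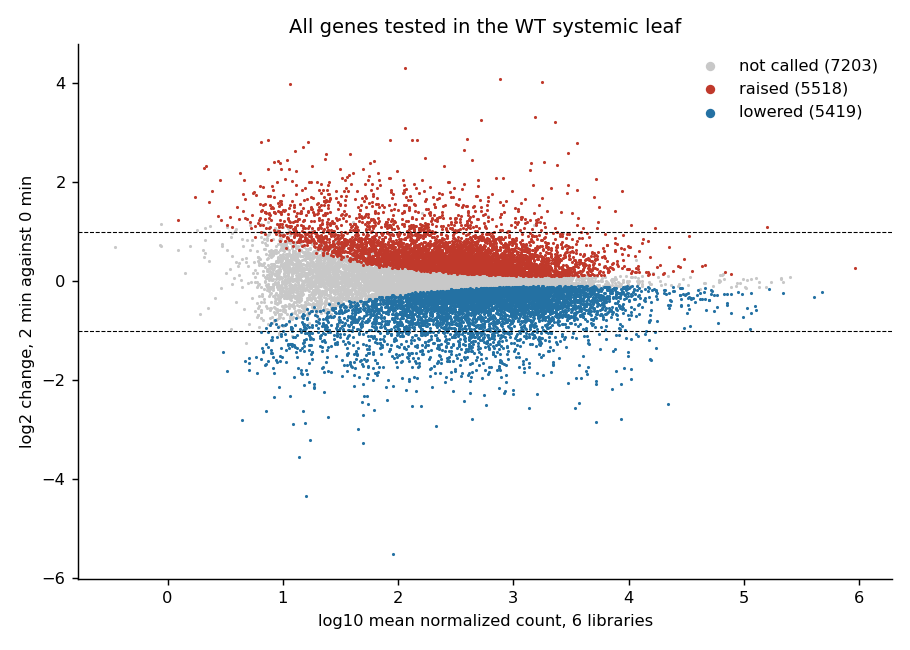
Log2 change at 2 min against the mean level for the 18140 genes tested in the WT systemic leaf, one point a gene, with raised genes in red, lowered genes in blue and genes not called in grey. The dashed lines mark a 2-fold change, beyond which lay 710 called genes above and 805 below.

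The 10 largest rises were taken among genes with a mean of at least 50 normalized counts and no overlap between the groups. They were those of PHI-1, SRG3, SPX1, DIN10, TCH4, ASN1, BT2, SEN1, WRI4 and MYB111. Several of these are known from darkened, sugar-starved or phosphate-starved plants or from touch. The lack of overlap in these 10 was a condition of their choice and is not further evidence. The transcript of ASN1, a glutamine-dependent asparagine synthetase that is induced in the dark and repressed by sugar (AT3G47340, chr3:17437840-17441431, minus strand), stood at 504, 401 and 436 normalized counts in the 3 libraries of 0 min and at 4235, 4033 and 4120.1 at 2 min, with no overlap (log2 change 3.21, SE 0.074, adjusted p 2.3e-19). DIN10, a dark-inducible gene of the raffinose synthase family (AT5G20250, chr5:6833564-6836862, plus strand), went from 354, 261 and 239 to 3017, 2798 and 2592 (log2 change 3.31, SE 0.10, adjusted p 3.0e-17). SEN1, another gene of darkened and ageing leaves (AT4G35770, chr4:16944878-16946266, plus strand), went from 122, 78.6 and 84.1 to 731, 618 and 732 (2.88, SE 0.13, adjusted p 3.9e-14). All 3 therefore stood several times higher in each library of 2 min than in any library of 0 min. STP1, a proton symporter that takes up monosaccharides, was at 819, 868 and 846 and then at 5544, 4958 and 4794 (2.59, SE 0.065, adjusted p 1.1e-18). BT2, a BTB and TAZ domain protein, rose as well, with 72.1, 8.84 and 16.2 before and 190.1, 193 and 206 after, and its 0 min libraries were far apart. Its log2 change was 3.09 in all libraries, 3.92 without replicate 1 of 0 min and 2.47 without replicate 2. WRI4, an AP2 factor of wax synthesis, and MYB111, a factor that activates flavonol synthesis, rose by 2.86 (adjusted p 1.6e-13) and 2.85 (adjusted p 1.4e-07). Of the 91 genes chosen for description by a rule, 18 overlap another annotated gene, among them SRG3, DIN10, ASN1, WRI4, TCH3, WRKY33 and BZIP61 on the opposite strand. Whether strand was used in counting is not given in the sources used here, so that part of their reads may belong to the neighbour.

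Of the 34 genes listed for carbon status and sugar response, 32 were tested, 21 were raised and 10 lowered, with a median change of 0.54 beside 0.03 over all genes, and 12 members rose at least 2-fold. SWEET12, a sucrose exporter of the phloem parenchyma, rose from 30.1, 30.5 and 35.4 to 112, 150.0 and 157, and DIN4, a subunit of the branched-chain ketoacid dehydrogenase, from 130.2, 117 and 141 to 477, 455 and 497. BMY3, of the beta-amylase family, rose from 3966, 4185 and 4341 to 11218, 11190.5 and 10919. Lowered members were led by BAM5, another beta-amylase, which had 49.5, 22.6 and 21 normalized counts at 0 min and 0, 2.10 and 0 at 2 min, where at most 2 reads were seen in a library. TPS8 and TPS5, of the trehalose-phosphate synthase family, changed by -1.52 and -1.08. The list thus held members that moved in both directions, and SUS1, a sucrose synthase with libraries that overlapped, passed with a small change of -0.26.

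Phosphate genes held 2 of the 3 largest rises, those of SPX1 and SRG3. SPX1 is a nuclear sensor of phosphate status that restrains the regulator PHR1 (AT5G20150, chr5:6802282-6803655, plus strand). Its level was 192, 208 and 208 at 0 min and 3238, 3322 and 3398 at 2 min (log2 change 4.03, SE 0.073, adjusted p 6.2e-21), a ratio of means of 16.4. SRG3, a glycerophosphodiester phosphodiesterase (AT3G02040, chr3:348167-350010, minus strand), went from 79.6, 98.3 and 74.5 to 1564, 1442 and 1327 (4.09, SE 0.092, adjusted p 1.8e-19). The acid phosphatase PAP17 went from 409, 484 and 486 to 2533, 2330.2 and 2340.4, and G3Pp1, a putative glycerol-3-phosphate transporter, from 1832, 2103 and 2073 to 8695, 8271 and 8112. In none of these 4 did the groups overlap, which for SPX1 and SRG3 was a condition of their choice. The spread within a group was small beside the gap. A list of phosphate starvation genes was drawn up after these values had been seen. Of its 34 members 26 were tested, 14 were raised and 5 lowered, with a median of 0.23. Not all members moved together, since PHR1 itself changed by -0.03 (adjusted p 0.60) and PHO1;H1, a phosphate exporter, fell from 215, 197 and 173 to 59.7, 79.7 and 71.9.

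**Figure D2:**
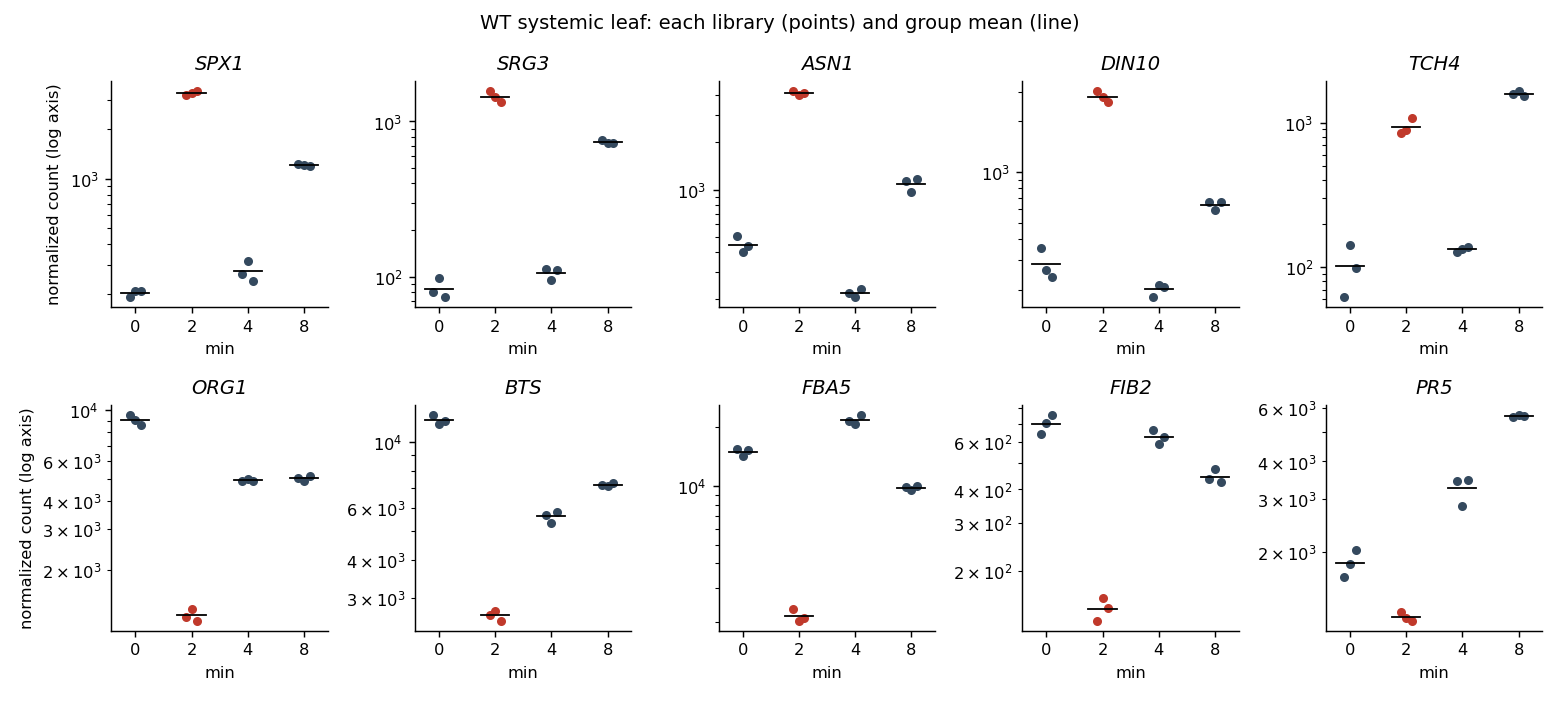
Normalized counts on a log axis of 10 genes in each of the 12 WT systemic libraries at 0, 2, 4 and 8 min, with 2 min in red and group means as lines. SPX1, SRG3, ASN1, DIN10 and TCH4 were above their 0 min libraries at 2 min, and ORG1, BTS, FBA5, FIB2 and PR5 below.

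The promoters of 4 of these and the following genes are shown, because short motifs tied to phosphate, calcium or sugar and abscisic acid responses were counted in all tested genes. They are the 250 bases before the annotated start in the RefSeq TAIR10.1 assembly, written 5′ to 3′ on the gene's strand, with matches on either strand in capitals. For SRG3 (chr3:350011-350260, minus strand) the capitals mark GNATATNC, the form bound by PHR1, which was added to the motifs after the values had been seen. For PHI-1 (chr1:12851733-12851982, plus strand) they mark CGCG, a motif of calcium and calmodulin binding factors. For ASN1 (chr3:17441432-17441681, minus strand) and BTS (chr3:6273716-6273965, plus strand) they mark the G-box CACGTG.
SRG3: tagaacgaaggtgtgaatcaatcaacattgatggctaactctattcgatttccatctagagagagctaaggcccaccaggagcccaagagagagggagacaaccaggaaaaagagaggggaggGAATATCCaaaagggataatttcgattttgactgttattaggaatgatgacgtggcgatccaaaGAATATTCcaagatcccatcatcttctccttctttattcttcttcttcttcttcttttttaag
PHI-1: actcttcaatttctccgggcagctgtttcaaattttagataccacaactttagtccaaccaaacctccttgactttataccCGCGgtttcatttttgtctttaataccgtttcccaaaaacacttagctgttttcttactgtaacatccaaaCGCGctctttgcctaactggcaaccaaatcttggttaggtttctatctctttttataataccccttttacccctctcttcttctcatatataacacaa
ASN1: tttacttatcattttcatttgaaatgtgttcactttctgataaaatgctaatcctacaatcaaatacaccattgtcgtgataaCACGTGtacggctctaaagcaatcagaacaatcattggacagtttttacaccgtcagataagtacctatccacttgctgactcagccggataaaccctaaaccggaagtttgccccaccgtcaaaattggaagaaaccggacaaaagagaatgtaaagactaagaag
BTS: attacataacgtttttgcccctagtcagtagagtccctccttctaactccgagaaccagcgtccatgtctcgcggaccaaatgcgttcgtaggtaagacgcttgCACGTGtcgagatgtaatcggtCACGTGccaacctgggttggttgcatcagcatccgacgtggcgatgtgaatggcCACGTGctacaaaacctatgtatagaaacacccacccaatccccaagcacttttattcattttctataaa

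SRG3 held 2 matches, PHI-1 2, ASN1 1 and BTS, a gene that fell, 3. A window of this length was read for 18049 of the tested genes. GNATATNC stood in 5.42% of all of them, in 7.92% of those raised at least 2-fold and in 4.35% of those lowered at least 2-fold. CGCG stood in 10.8%, 13.2% and 9.08%, and its longer form ACGCGT, which contains it, in 1.76%, 3.54% and 0.995%. The G-box was in 7.39%, 6.79% and 7.21%, and ACGTG, the core within it, in 23.1%, 28.0% and 23.8%. Raised genes held these motifs more often than lowered genes did, except for the G-box. The W-box core TTGAC, bound by WRKY factors, was in 44.5%, 51.2% and 43.3%. The heat shock element GAANNTTC was in 9.47%, 15.7% and 9.95%, and CCGAC, the core bound by DREB factors, in 13.1%, 9.19% and 16.3%. The evening element AAATATCT was in 4.93%, 6.36% and 6.97%, and the GCC box GCCGCC in 1.98%, 2.69% and 1.37%. CCGAC was the more frequent in lowered genes, and AAATATCT had near-equal shares in both. Among the 74 genes raised at least 4-fold, GNATATNC stood in 14.9%, CGCG in 12.2%, ACGCGT in 2.70%, the G-box in 10.8% and ACGTG in 37.8%. There TTGAC stood in 47.3%, GAANNTTC in 18.9%, CCGAC in 6.76%, AAATATCT in 13.5% and GCCGCC in 0.00%. These shares are a description and were not tested.

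Calcium-binding and touch genes rose almost without exception. Of 25 listed, 22 were tested, 20 were raised and 1 lowered, with a median of 0.63. TCH4, a xyloglucan endotransglucosylase that is switched on by touch (AT5G57560, chr5:23307006-23308680, minus strand), went from 62.4, 143 and 99.4 to 844, 895 and 1086 (log2 change 3.27, SE 0.17, adjusted p 2.1e-13). TCH3, a calmodulin-like protein, went from 796, 894 and 840.1 to 2284, 2593 and 2502, and TCH2, another, from 705, 683 and 679 to 1003, 1007 and 940.2. In all 3 the groups were apart, which for TCH4 was a condition of its choice. CML37, a calmodulin-like protein of wounding, rose from a low level, with values of 11.8, 5.90 and 7.65 and 29.3, 25.2 and 44.2. PHI-1, of the phosphate-responsive 1 family (AT1G35140, chr1:12851983-12853235, plus strand), had the greatest rise of all genes tested, 4.30 (SE 0.44, adjusted p 2.0e-08). Its 0 min libraries were uneven, at 2.15, 23.58 and 15.3, against 210.4, 185 and 248 at 2 min, and the change was 3.42 without replicate 1 of 0 min and 4.90 without replicate 2.

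Among genes for calcium and ion transport in long-distance signals, 16 of 26 tested were raised (61.5%) and 4 lowered (15.4%), with a median of 0.33. CAX3, a vacuolar exchanger of calcium for protons, went from 8.61, 33.4 and 27.7 to 91, 86 and 81.8 (2.04, SE 0.28, adjusted p 1.8e-06). MSL10, a mechanosensitive channel, fell from 485, 564 and 493 to 204, 251 and 259.9 (-1.11, SE 0.081, adjusted p 9.0e-11). Among glutamate receptor-like channels, GLUR2 fell from 573, 595 and 596 to 315, 328 and 309 (-0.89, SE 0.063, adjusted p 4.6e-11), whereas GLR3.3 and GLR3.6, known from wound signalling, did not pass the test, with changes of -0.07 (adjusted p 0.31) and 0.10 (adjusted p 0.32).

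Regulators of stress and defence were raised more often than lowered. For the reactive oxygen network 13 of 26 tested were raised and 8 lowered, 50.0% and 30.8% beside 30.4% and 29.9% of all genes, with a median of 0.18. The lowered share was thus near the background. Among the 8 were FSD3, FSD1, APX3 and APX1 (-0.83, -0.51, -0.47 and -0.25), while CAT1 and FSD2 rose by 0.74 and 0.30. RBOHD stood at 1381, 1307 and 1244 and then at 1487, 1459 and 1475, a rise of 0.17 on the log2 scale (SE 0.049, adjusted p 0.0047). STZ, the zinc finger repressor ZAT10, went from 74.2, 46.2 and 47.8 to 220.5, 198 and 230.1 (1.96, SE 0.12, adjusted p 7.8e-12), and its relatives ZAT6 and ZF2 changed by 1.21 and 1.22. RHL41, which is ZAT12, was low in both groups, at 9.68, 6.88 and 6.69 and 17.2, 21 and 21, and rose by 1.25 (adjusted p 7.4e-05). All of these zinc finger genes were higher in each 2 min library than in any 0 min library.

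Of 42 WRKY factors tested, 20 rose (47.6%) and 5 fell (11.9%). WRKY62 had the largest change of this list, -1.81, and WRKY38 changed by -1.20. WRKY46 went from 119, 82.5 and 129 to 272, 318 and 333 (1.49, SE 0.12, adjusted p 6.4e-10) and WRKY33, a regulator of camalexin and defence, from 419, 261 and 297 to 663, 689 and 672 (1.08, SE 0.11, adjusted p 2.1e-08), and WRKY50 rose by 0.94. Of 42 AP2/ERF factors 22 rose (52.4%) and 7 fell (16.7%). Among those with a mean of at least 50 normalized counts the largest changes were those of ERF104, which rose from 37.7, 20.6 and 16.2 to 101, 99.6 and 81.8, DREB26, which rose from 38.7, 51.1 and 52.6 to 129, 152 and 144, and CRF5, which rose from 102, 109 and 108 to 276, 275 and 265. CBF2, a cold response factor, and CRF3, at lower levels, rose by 2.58 and 2.26. Falls in this list were led by ERF53, RAV1 and RAV2, with changes of -1.82, -1.27 and -1.04. The salicylic acid list had 13 raised and 4 lowered of 23, with a median of 0.43. CBP60G, a calmodulin-binding factor that activates salicylic acid synthesis, went from 157, 173 and 156 to 470.3, 529.6 and 536 (1.65, SE 0.079, adjusted p 6.2e-14), PBS3, an enzyme of that synthesis, from 139.9, 124 and 141 to 300.4, 338 and 356, and SARD1, the partner of CBP60G, from 162, 124 and 179.7 to 313, 383 and 312. The pathogenesis-related genes did not move alike, since PR1 rose from 12.9, 15.7 and 34.4 to 60.7, 71.3 and 56.4 whereas PR5 fell from 1659, 1827 and 2034 to 1271, 1211 and 1189 (-0.58, SE 0.067, adjusted p 1.4e-07).

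Most clock genes were higher at 2 min. Of 23 clock genes tested, 16 were raised and 3 lowered, with a median of 0.43. LHY, a morning repressor of the clock, stood at 10817, 10809 and 11302 at 0 min and at 23163, 22873 and 23344 at 2 min (1.07, SE 0.038, adjusted p 3.6e-16), and its partner CCA1 at 10676, 10457 and 11137 and 18839, 18692 and 19224. GI, a gene of the later day, fell from 1172, 1315 and 1295 to 746, 714 and 689 and PRR7 from 2135, 2037 and 2105 to 1443, 1428 and 1479, while the evening gene TOC1 rose by 0.64, the evening complex gene ELF3 by 1.43 and RVE2, a relative of LHY, by 1.45. Light signalling and photoprotection genes were mixed, with 13 raised (37.1%) and 15 lowered (42.9%) of 35, and a median of -0.06 that turned to 0.05 after rescaling to the same total. HY5, a factor of light signalling, rose from 559, 624 and 637 to 2385, 2258 and 2348 (1.94, SE 0.055, adjusted p 7.4e-18). BBX32, a B-box protein that represses light signalling, rose from 604, 549 and 581 to 3209, 3061 and 2993 (2.42, SE 0.056, adjusted p 2.3e-19).

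Several of the strongest falls were in genes of iron homeostasis. ORG1, an OBP3-responsive gene (AT5G53450, chr5:21688763-21692480, plus strand), fell from 9541, 9077 and 8654 to 1239, 1341 and 1195 (log2 change -2.85, SE 0.046, adjusted p 1.1e-21). BTS, an E3 ubiquitin ligase that restrains the iron deficiency response (AT3G18290, chr3:6273966-6280562, plus strand), fell from 12288, 11492 and 11708 to 2628, 2699 and 2513 (-2.18, SE 0.043, adjusted p 2.2e-20), and OPT3, which loads iron into the phloem, from 16334, 16423 and 16149 to 4889.8, 4771 and 4669 (-1.77, SE 0.041, adjusted p 2.8e-19). The spread in each group was small beside these gaps. ZIF1, a vacuolar carrier of the chelator nicotianamine (AT5G13740, chr5:4432297-4437148, plus strand), fell from 5891, 5829 and 5833 to 984, 969 and 988 (-2.58, SE 0.038, adjusted p 4.1e-22). Of the 31 iron genes listed 24 were tested, 14 fell (58.3%) and 4 rose (16.7%), with a median of -0.52. Those that fell included genes of the deficiency response, among them PYE, BHLH100 and BHLH101 (-1.65, -1.61 and -2.71). Ferritins, which store iron, were split, with FER1 at 0.61, FER4 at 0.69 and FER3 at -0.91.

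Other falls of this size were seen in single genes. FBA5, a fructose-bisphosphate aldolase (AT4G26530, chr4:13390754-13393265, plus strand), went from 15487, 14153 and 15160.1 to 2346, 2042 and 2099 (-2.79, SE 0.052, adjusted p 7.7e-21). It overlaps a neighbouring gene on the same strand. AT1G62510, of the lipid-transfer protein superfamily (chr1:23136366-23137254, minus strand), went from 394, 323 and 412 to 39.4, 49.3 and 57.5 (-2.93, SE 0.13, adjusted p 2.6e-14). The nucleoside phosphatase family gene AT1G14250 went from 933, 671 and 683 to 114, 113 and 96.2, the Kelch repeat F-box gene AT1G23390 from 2467, 2227 and 2304 to 399, 403 and 382, AT1G78930, of the mitochondrial termination factor family, by -2.60 on the log2 scale, and OFP16, of the ovate family, from 283, 268 and 262 to 58.7, 33.6 and 50.9. In each of them every 2 min library lay below every 0 min library, as the rule for naming the largest falls required. The largest fitted fall, -5.53 (SE 0.62, adjusted p 7.7e-08), was that of AT4G17470, an alpha/beta-hydrolase, with 34.4, 238 and 261 at 0 min and 0, 3.15 and 4.42 at 2 min. Replicate 1 of 0 min was low there, and the change was -6.47 without it and -4.78 without replicate 1 of 2 min, in which no read was seen.

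Jasmonate genes were lower. Of 26 tested 17 fell (65.4%) and 4 rose (15.4%), with a median of -0.41. The allene oxide cyclase AOC2 fell from 693, 621 and 569 to 137, 92.3 and 121 (-2.43, SE 0.10, adjusted p 1.1e-14) and the lipoxygenase LOX2 from 6937, 5723 and 5767 to 1742, 1493 and 1506 (-1.96, SE 0.068, adjusted p 2.5e-16), both enzymes of jasmonate synthesis. AOC1, a paralogue of AOC2, changed by -1.25 on the log2 scale. VSP2, a storage protein whose gene follows jasmonate (AT5G24770, chr5:8500468-8502224, minus strand), fell from 154, 259 and 268 to 25.3, 46.1 and 44.2 (-2.53, SE 0.21, adjusted p 6.8e-10). The repressor gene JAZ1 fell from 69.9, 58 and 59.3 to 49.6, 45.1 and 45.3, with a change of -0.41 (adjusted p 0.017), a call that did not hold after rescaling to the same total (adjusted p 0.079).

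Genes of growth hormones moved in both directions. GA3OX1 and GA20OX1, enzymes of the last steps of gibberellin synthesis, fell from 69.9, 91.4 and 94.6 to 16.2, 17.8 and 14.4 (-2.33, SE 0.18, adjusted p 3.5e-10) and from 105, 90.4 and 84.1 to 27.3, 27.3 and 25.4 (-1.76, SE 0.15, adjusted p 7.2e-10), whereas GASA6, a gibberellin-regulated peptide gene, rose from 1605, 1457 and 1552 to 6007, 5065 and 5615. In the gibberellin list 10 of 17 rose and 3 fell. Of 36 auxin response genes 9 rose and 14 fell, 25.0% and 38.9% beside 30.4% and 29.9% of all genes. IAA1, an early auxin repressor, went from 456, 569 and 584 to 209, 218 and 226. The growth genes SAUR24 and SAUR20 changed by -1.03 and -0.80. Cell wall loosening genes rose in 20 of 39 and fell in 9, the latter led by XTH31, which went from 6514, 5981 and 6253 to 1239.9, 1104 and 1067 (-2.46, SE 0.054, adjusted p 1.3e-19), while EXLA1, an expansin-like gene, rose by 1.77. Abscisic acid genes were raised in 13 and lowered in 11 of 35, 37.1% and 31.4% beside 30.4% and 29.9% of all genes tested, so the list stood near the background. Their cold and drought markers COR15A and LTI78 fell, the former from 4382, 4973 and 4992 to 1258, 1053 and 1126, while CYP707A1, which breaks abscisic acid down, rose from 16.1, 31.4 and 32.5 to 123, 90.2 and 113.

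Heat shock genes had 9 raised and 11 lowered of 27, 33.3% and 40.7% beside 30.4% and 29.9% of all genes, with a median of 0.02. HSP70 (AT3G12580, chr3:3991117-3993886, minus strand) fell from 8102, 5946 and 6121 to 1900.3, 1852 and 1894 (-1.82, SE 0.084, adjusted p 3.5e-14), AT5G48570, an immunophilin of the FKBP type, changed by -1.61, and HSFA8, a heat shock factor, rose from 31.2, 29.5 and 32.5 to 95.1, 109 and 99.5. In the hypoxia list 7 of 13 rose and 1 fell, RAP2.12 from 448, 464 and 512 to 861, 867 and 817, and the ethylene response factor EBP by 0.34. The 50 nuclear photosynthesis genes moved little, with changes between -0.65 and 0.27 and a median of -0.12. There 22 were lowered and 2 raised, but 11 and 16 after rescaling to the same total. RBCS2B, a small subunit of Rubisco that has near-identical copies, went from 92124, 90532 and 98401 to 62205, 57113 and 60091, its copy RBCS3B changed by -0.50 and the antenna gene Lhca6 by -0.46. The sum of the 5 epidermal markers was 34104 to 36757 at 0 min and 22418 to 23674 at 2 min, with 4 of 5 lowered. The members changed unequally, LP1 by -1.08 but KCS10, ATML1 and PDF2 by -0.35, -0.18 and -0.17. PDF1 was not called, at 0.17, so the sum does not stand for each marker. The 6 guard cell markers summed to 1190 to 1262 at 0 min and 1184 to 1226 at 2 min. Fewer cells of a type and less RNA per cell cannot be told apart in bulk leaves, and the part of the epidermal markers in the falls described above was not tested.

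**Figure D3:**
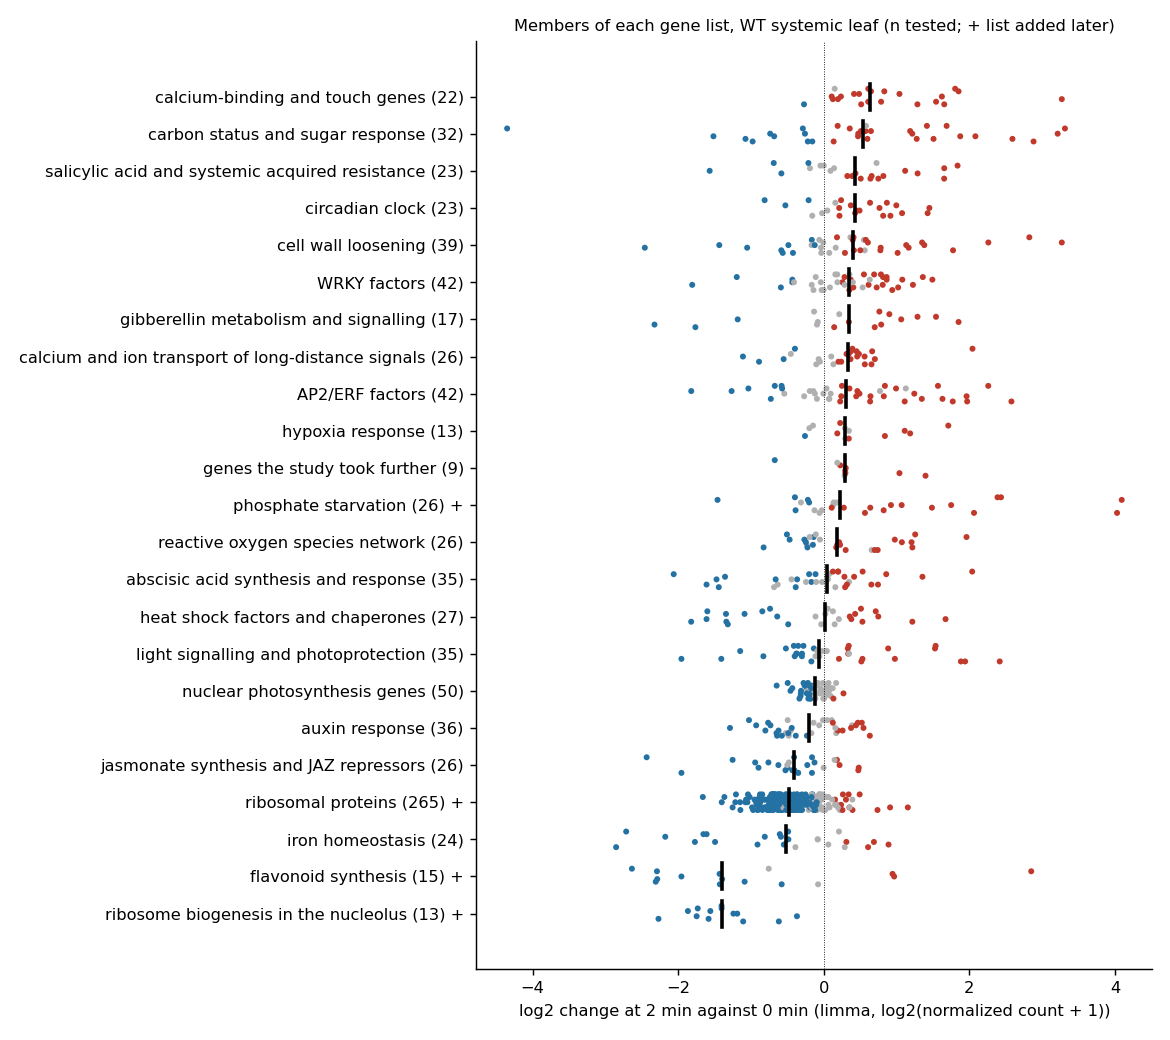
Log2 change at 2 min of each tested member of the gene lists in the WT systemic leaf, one point a gene, red where raised, blue where lowered and grey where not called, with the list median as a black bar. Medians ran from -1.41 for nucleolar genes to 0.63 for calcium-binding and touch genes, beside 0.03 over all genes.

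Among 9 genes that the study followed up, 7 of them with knockout lines and WRKY53 and MYB30 by other means, 6 rose and 1 fell at 2 min. They were chosen on these samples, so their direction is not independent evidence. AT1G69890 rose from 23.7, 38.3 and 44 to 100.1, 82.8 and 92.9 (1.40, SE 0.20, adjusted p 2.2e-06) and AT3G13600 from 23.7, 13.8 and 14.3 to 33.4, 37.8 and 35.4 (1.04, SE 0.25, adjusted p 0.0012), the latter low in both groups. MYB30, a regulator of the hypersensitive response, went from 222, 222 and 242 to 289, 269.5 and 283 (0.30, SE 0.087, adjusted p 0.0055), with no overlap. BME3, AT1G56520 and AT5G46270 rose by 0.29, 0.30 and 0.23, whereas AT1G29670 fell by 0.67. WRKY48 and WRKY53 had overlapping libraries, with 14, 10.8 and 20.1 and 26.3, 6.29 and 26.5 for the former and 72.1, 70.8 and 72.6 and 57.6, 94.4 and 124 for the latter. WRKY48 did not pass the test, with a change of 0.18 (adjusted p 0.69), nor did WRKY53, at 0.28 (adjusted p 0.18). A single library decided both calls, since WRKY48 changed by 0.82 (adjusted p 0.013) without replicate 2 of 2 min and WRKY53 by 0.58 (adjusted p 0.0016) without replicate 1 of 2 min.

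Many genes did not hold their level of 2 min. Between 2 and 4 min 10824 genes differed, 59.7% of those tested, 5600 of them higher at 4 min (30.9%) and 5224 lower (28.8%). Others did not pass this test, such as CAX3, with 82.7, 106 and 73.7 at 4 min (adjusted p 0.99), and CBP60G, with a change of 0.14 (adjusted p 0.13) from 2 to 4 min. This comparison shares the 2 min libraries with the first, so the levels are given side by side. SPX1 was at 263, 318 and 239 at 4 min and at 1221, 1214 and 1196 at 8 min, against 3238, 3322 and 3398 at 2 min. ASN1 was at 219, 208 and 233 and 1131, 967 and 1165, so below its 0 min libraries at 4 min and above them at 8 min. ORG1, at 4914, 4985 and 4876 and 5022, 4899.6 and 5147, lay between its levels of 0 and 2 min at both times. FBA5 was at 21498, 20802 and 23013 at 4 min, above 0 min, and at 9806, 9498 and 9921 at 8 min. TCH4 was back near 0 min at 4 min, with 128, 133 and 138, and highest at 8 min, with 1591, 1650.1 and 1527.

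Against 8 min, 9061 genes differed from 2 min (50.0%), 5180 higher at 8 min (28.6%) and 3881 lower (21.4%). The genes raised at least 2-fold at 2 min had a median change of 1.34 from 0 min, and against the same 0 min libraries 0.30 at 4 min and 0.98 at 8 min. For the genes lowered at least 2-fold these medians were -1.31, -0.0022 and -0.43. Both sets were chosen by their change at 2 min, which by itself favours larger medians at that time than at 4 and 8 min. Gene groups followed separate courses, given here as medians without a test. Salicylic acid genes had medians of 0.43, 0.96 and 1.86 at 2, 4 and 8 min against 0 min. Of these genes 19 of 23 were higher at 8 than at 2 min, beside 28.6% of all genes. PR5, which had fallen at 2 min, was at 3447, 2839 and 3479 and 5616, 5700.3 and 5661. Carbon status genes had medians of 0.54, -0.02 and 0.24, with 20 of 32 lower at 4 than at 2 min, beside 28.8% of all genes. Jasmonate genes had -0.41, 0.02 and 0.04, and iron genes -0.52, -0.15 and -0.04.

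Most changes of the systemic leaf were also seen in the lit local leaf of the same plants. Over 17836 genes tested in both leaves the changes at 2 min had a Pearson r of 0.86, across genes, which are not independent replicates. Of 1449 genes that changed at least 2-fold in the systemic leaf and were tested in both, 1361 were called in the same direction in the local leaf, 2 in the opposite and 86 not at all. Over all 18055 genes tested in the local leaf, 12077 were called at 2 min, 6034 raised and 6043 lowered. The difference of the changes, tested within limma on the 24 WT libraries, was called for 2149 genes (12%), 1198 with the systemic change above the local one (6.72%) and 951 below it (5.33%). After rescaling to the same total these were 773 and 1435, so that the former made up 35% of the calls against 55.7%. Of the 20 largest rises and falls above, 9 had a different change in the local leaf. Those 20 were chosen by their systemic change, which is part of the difference, so this count cannot be read against the 12% of all genes.

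Among genes that averaged 50 or more normalized counts at 0 and 2 min in each leaf, TCH4 had the largest difference in the upward direction, with a change of 3.27 in the systemic leaf and 1.33 in the local leaf, where it went from 78.8, 95.2 and 90.9 to 212, 241 and 216 (difference 1.94, SE 0.21, adjusted p 3.2e-07). ARR15, a response regulator of cytokinin, was at 405, 405 and 471 and 499.6, 454 and 521 in the systemic leaf, where the groups overlapped, and fell in the local leaf from 306, 290.1 and 309 to 119, 115 and 114 (difference 1.57, SE 0.15, adjusted p 1.2e-08). AT1G04800 and AT4G36850 followed within this limit of level, with differences of 1.40 and 1.30. In the other direction AT1G59860, a small heat shock protein, fell from 89.3, 83.5 and 85.1 to 52.6, 67.1 and 66.4 in the systemic leaf, a call lost without replicate 1 of 2 min (adjusted p 0.055), and rose from 103, 106 and 112 to 436, 420.1 and 423 in the local leaf (difference -2.46, SE 0.14, adjusted p 1.1e-12). ABCG40, an importer of abscisic acid, rose in both leaves, to 54.6, 58.7 and 63 in the systemic and to 465, 433 and 439.9 in the local leaf (difference -1.92, SE 0.21, adjusted p 2.7e-07). JAZ1 and PR5 fell in the systemic and rose in the local leaf, with differences of -1.48 and -1.40. Over all genes 6.72% had a higher change in the systemic leaf and 5.33% a lower one. Among the lists, cell wall loosening genes had 13 of 37 with a higher change in the systemic leaf and 1 with a lower one. Jasmonate genes had 0 and 7 of 26, with median changes of -0.41 in the systemic and 0.003 in the local leaf.

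**Figure D4:**
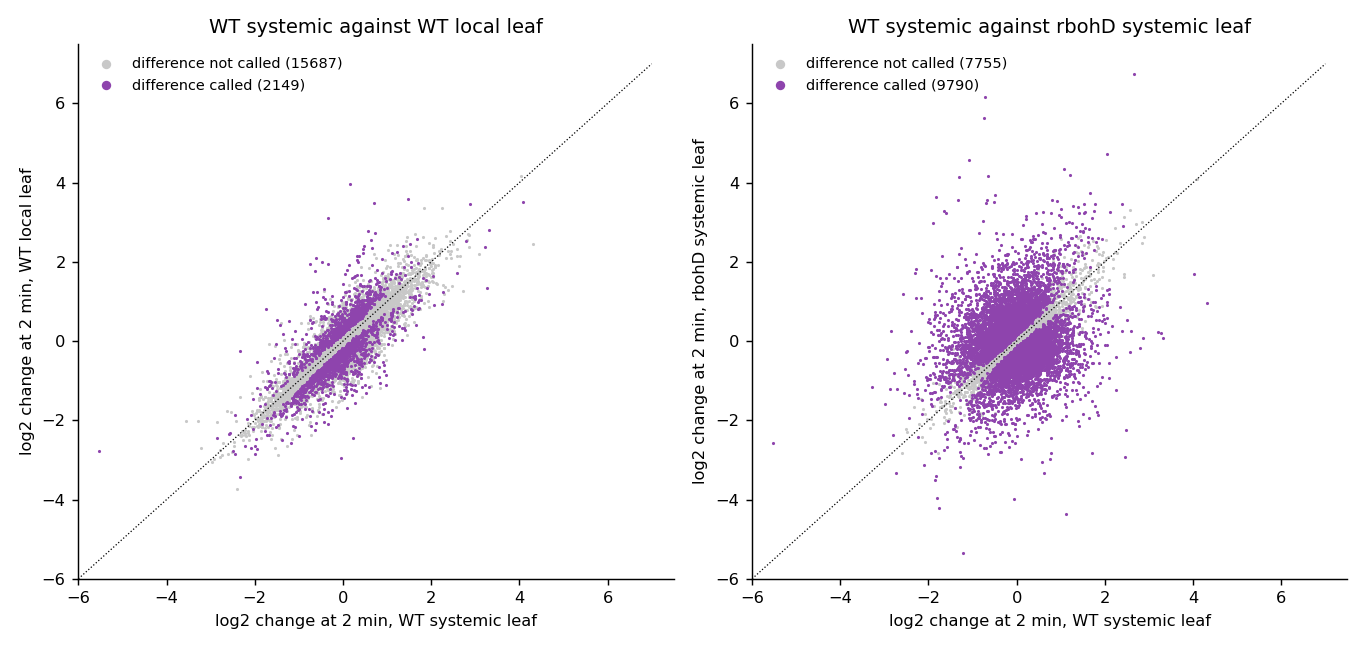
Log2 change at 2 min in the WT local leaf (left) and the rbohD systemic leaf (right) against that in the WT systemic leaf, one point a gene, with genes whose difference was called in purple and the line of equal change dotted. The difference was called for 2149 genes on the left and 9790 on the right.

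Systemic leaves of rbohD also changed at 2 min, but many genes changed by another amount or in the other direction. The difference was called for 9790 of 17545 genes (55.8%), 4635 with a higher change in WT (26.4%) and 5155 with a lower one (29.4%). After rescaling these were 6263 and 3955, the former 61.3% of the calls against 47.3%. Across genes, the changes in both genotypes had an r of 0.33. Of 1371 genes that changed at least 2-fold in WT systemic leaves and were tested in both, 839 were called in the same direction in rbohD, 246 in the opposite and 286 not at all. Over all 17609 genes tested in rbohD systemic leaves, 11141 were called at 2 min, 5598 raised and 5543 lowered. The WT and rbohD libraries belong to separate experiments that were normalized separately, so that genotype and experiment cannot be told apart, and levels were not compared across them. Of the 20 largest rises and falls, 14 had a different change in rbohD. Those 20 were chosen by their WT systemic change, which is part of the difference, so this count cannot be read against the 55.8% of all genes.

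The 4 largest differences in each direction, again with a mean of at least 50, were those of the following genes. BZIP61, a basic leucine zipper factor (AT3G58120, chr3:21520974-21523518, minus strand) rose from 111, 150.3 and 143 to 773, 736 and 710.1 in WT and went from 449, 483 and 517 to 66.9, 54.6 and 67.4 in rbohD (difference 5.38, SE 0.13, adjusted p 1.7e-28). LYK3, a LysM receptor-like kinase, rose from 49.5, 52.1 and 61.2 to 169.9, 178 and 187 in WT and went from 222, 236 and 207 to 28.8, 33.2 and 29.4 in rbohD (difference 4.53, SE 0.16, adjusted p 1.5e-23). In both genes the direction was opposite in the genotypes and no library of 2 min lay among those of 0 min. Fes1B did not pass the test in WT, with 74.2, 51.1 and 67.9 and 61.7, 53.5 and 67.5, and was at 323, 362 and 340.3 and 16.5, 24.6 and 22.1 in rbohD (difference 3.90). BBX27, a B-box protein, rose in WT by 0.74 and differed by 3.71. In the other direction HSFA2, a heat shock factor, fell from 619, 568 and 617 to 256, 274 and 319.7 in WT and rose from 38.4, 29.3 and 39.5 to 858, 841 and 914 in rbohD (difference -5.67, SE 0.14, adjusted p 1.7e-28). HSP70 fell by 1.82 in WT and went from 683, 590.1 and 639 to 8094, 7695 and 7939.7 in rbohD (difference -5.46, SE 0.11, adjusted p 1.6e-31), and AT1G07400, a small heat shock protein, differed by -6.88, from a level of 2.81, 2.10 and 2.2 in rbohD at 0 min. PYE, a regulator of iron deficiency genes, fell from 1971, 2115 and 2131 to 697, 622 and 656 in WT and rose from 148, 155 and 128 to 1412, 1411 and 1429 in rbohD (difference -4.95, SE 0.096, adjusted p 1.2e-31).

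The lists of these chaperone and iron genes also differed between the genotypes. Over all genes tested for this difference, 26.4% had a higher change in WT and 29.4% a lower one. For heat shock genes the median change was 0.02 in WT and 1.67 in rbohD. There 17 of 27 members had a lower change in WT and 3 a higher one. Iron genes had medians of -0.52 and 0.57, with a lower change in WT in 16 of 24 and a higher one in 0. Carbon status genes had 0.54 and 0.08. Of these 17 of 30 had a higher change in WT and 10 a lower one, the latter near the share of all genes. DIN10 and ASN1 changed in rbohD by 0.07 and 0.23, from 429, 500.0 and 469.8 to 570.1, 570.0 and 498 for the latter, against 3.31 and 3.21 in WT, while SRG3 changed by 4.09 against 4.09. RBOHD rose less in WT systemic leaves than the reads of its locus did in rbohD, where they went from 408, 448 and 411 to 697, 656 and 612 (difference -0.46, SE 0.076, adjusted p 3.1e-06).

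**Figure D5:**
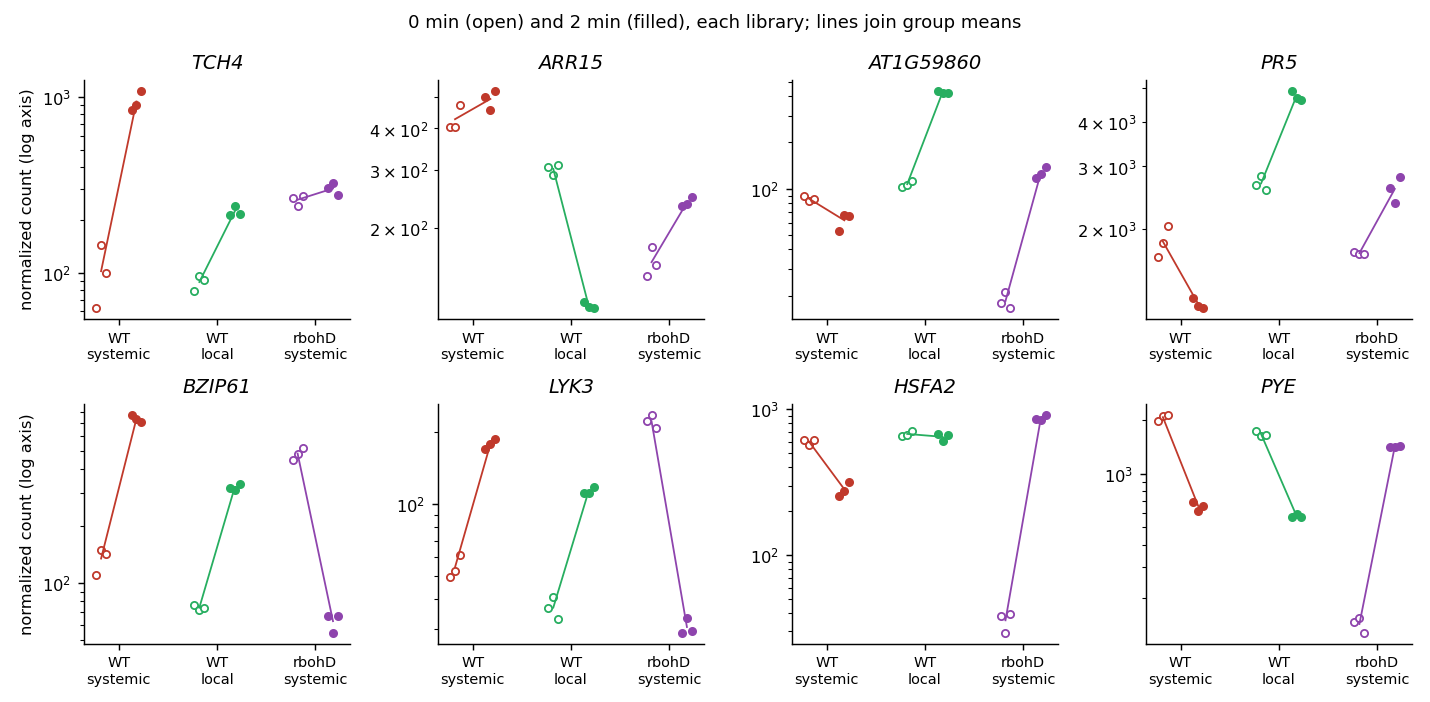
Normalized counts on a log axis of 8 genes at 0 min (open) and 2 min (filled) in each library of WT systemic (red), WT local (green) and rbohD systemic leaves (purple), with lines joining group means. The tables were normalized separately, so slopes and not heights compare between colours, and HSFA2 and PYE fell in WT systemic and rose in rbohD systemic leaves.

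Raised genes of at least 2-fold had a median annotated transcript of 1594 bases with 3 exons and a median level of 62.5 normalized counts, and 27.3% of them had a single exon. The lowered genes of at least 2-fold had 1700 bases, 4 exons, 225 normalized counts and 19.4%, and genes not called 1707 bases, 4 exons, 148 normalized counts and 16.5%. The median GC content was 40.6%, 41% and 41.2%. These values are a description without a test, and calls depend on level, since low genes need a greater change to pass.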

How the data were processed

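RNA-seq of local and systemic leaves of WT and rbohD at 0, 2, 4 and 8 min gave 48 libraries. Per the methods and submitters' notes, the authors checked reads with FastQC 0.11.7, aligned them with STAR 2.4.0.1 to TAIR10 and normalized counts with DESeq2 1.20.0. The counter is not given in the sources used here. The authors deposited 4 tables of 12 libraries, whose values (the unit is a signal) are gene counts divided by a size factor. 3 tables were used, and tests were made within a table or on differences of changes. Whole reads were recovered by dividing by the value of 1 read, and 100% of values came within 0.1 of a whole number. The 6 libraries held 20197316 to 25988992 reads, so counting error is small except in low genes.

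log2(normalized count + 1) of genes with at least 10 in at least 3 of 12 libraries was fitted in R 4.3.3 by limma 3.58.1, whose prior variance followed the mean, without a block, at an adjusted p of 0.05. edgeR 4.0.16 and DESeq2 1.42.0 on recovered reads, a pseudocount of 5, no filter, rescaling to equal totals, a replicate block, a loess correction on GC content (also with the block), fits on the compared groups alone and leaving out each library were the alternatives. By the study's methods systemic and local leaves were taken from the same plants, but no label ties a local library to a systemic one. Libraries with the same time and number were assumed to be such a pool, which was the block tried for leaf by time. Their paired deviations correlated by 0.0016 to 0.077. The model was tested on simulated data.

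By rule the text names RBOHD, the 10 largest rises and falls (libraries not overlapping), the 4 largest differences in each direction per interaction and the 3 largest changes in each gene list, all among genes with a mean of at least 50 normalized counts in the libraries compared, and the 9 genes the study followed up. Other list members named were chosen after their values were seen. The members and lists were chosen with earlier results of these data known. Of 32833 loci 32548 matched a RefSeq record (TAIR10.1), which gave coordinates and promoters.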

Additional observations from a re-analysis of the deposited data

Results flagged for a closer look

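The results below drew attention because the change at 2 min differed between groups by a limma test of the difference itself, with Benjamini-Hochberg adjustment over all genes tested. Between WT systemic and WT local leaves 2149 genes differed. The systemic minus local difference on the log2 scale was 1.94 for TCH4, 1.57 for ARR15, 1.40 for AT1G04800 and 1.30 for AT4G36850, and -2.46 for AT1G59860, -1.92 for ABCG40, -1.48 for JAZ1 and -1.40 for PR5. RBOHD differed by -0.24, and BME3, AT1G29670 and MYB30, which the study followed up, by 0.31, 0.30 and 0.40.

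Between WT and rbohD systemic leaves 9790 genes differed. The WT minus rbohD difference was 5.38 for BZIP61, 4.53 for LYK3, 3.90 for Fes1B and 3.71 for BBX27. In the other direction it was -6.88 for AT1G07400, -5.67 for HSFA2, -5.46 for HSP70 and -4.95 for PYE. RBOHD differed by -0.46. Of the genes that the study followed up AT1G69890 differed by 1.96, AT3G13600 by 1.65, BME3 by 0.25, AT1G29670 by 0.66 and MYB30 by 0.91. Genotype and experiment cannot be told apart in this comparison.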

How the results depend on the processing

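All 87 alternatives of the 5 comparisons gave total counts within 1.5 times those reported. For leaf by time the fit on the compared groups alone gave 1437 genes against 2149, close to that limit. The limit did not hold for its directions, which went from 1198 above and 951 below to 773 and 1435 after rescaling. For 2 against 0 min in WT systemic leaves edgeR on recovered reads called 10910 genes and DESeq2 9711, and no gene called changed direction under any of the 15 alternatives tried there. Leaving out 1 library gave 10026 to 10516 genes for 2 against 0 min, 9919 to 10445 for 4 against 2 min, 7965 to 8379 for 8 against 2 min, 1591 to 2171 for leaf by time and 9343 to 9579 for genotype by time. A replicate block gave 11039 genes for 2 against 0 min, 10980 for 4 against 2 min, 9238 for 8 against 2 min and 9857 for genotype by time. Replicates of 0 and 2 min that share a number had correlations of deviations of -0.078, 0.041 and 0.012. Pairs of unequal number ranged from -0.095 to 0.076. So few pairs cannot show whether libraries of equal number share a day or set of plants. With the assumed pool of plants as a block, 2584 genes were called for leaf by time. Of 120 counts of list members in 1 direction 10 moved by more than 1.5 times.

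Of 91 genes named by the rule 83 kept their side of the threshold throughout. ARR15, AT1G59860, JAZ1 and SUS1 lost the call under at least 1 alternative, and AT1G04800, WRKY48 and WRKY53 gained one. Fes1B and WRKY48, not called as reported, changed sign. Fes1B was at 0.045 after rescaling to the same total and between -0.224 and 0.041 with 1 library left out. WRKY48 was between -0.136 and 0.822, with negative values without replicate 2 of 0 min, replicate 1 of 2 min or replicate 3 of 2 min. The cause was not tested. Genes with fewer than about 10 normalized counts were not tested, and in low genes only large changes could pass.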

Other observations

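Most genes of ribosome biogenesis and of flavonoid synthesis were lower in WT systemic leaves at 2 min. These lists were drawn up after the values had been seen, and are described without a test of the list. Of 13 nucleolar genes of ribosome biogenesis 13 fell, with a median log2 change of -1.41. FIB2, a fibrillarin that methylates ribosomal RNA, stood at 640.1, 708 and 756 normalized counts at 0 min and 130.5, 158 and 145 at 2 min, and NUC-L1, a nucleolin, at 6809, 6879 and 6914 and 2042, 2066 and 2029. Their groups did not overlap. Of 265 tested genes listed by a ribosomal protein name in their annotation, 215 fell, 13 rose and 37 were not called. Their changes ran from -1.66 to 1.15, with a median of -0.47. A match by name may also take in other proteins. Against 0 min the medians of the nucleolar list were -0.11 at 4 min and -0.47 at 8 min, and at 2 min they were -1.49 in the WT local leaf and -0.50 in systemic leaves of rbohD.

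Of 15 flavonoid genes tested 10 fell and 3 rose, with a median of -1.40. The flavonol synthase FLS1 stood at 809, 989.5 and 999 at 0 min and 198, 182 and 179 at 2 min, and the chalcone synthase TT4, which overlaps a gene on the opposite strand, at 5176, 5801 and 5842 and 1527, 1358 and 1446. Every library of 2 min lay below those of 0 min. Those that rose were UGT78D2, a flavonoid glucosyltransferase, and the activators of flavonol synthesis MYB12 and MYB111, by 0.97, 0.94 and 2.85 on the log2 scale. The list median was -1.14 in the WT local leaf and 1.2 in systemic leaves of rbohD at 2 min. Of 12 members tested in both genotypes 9 had a lower change in WT, beside 29.4% of all genes.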
